A study of Xenopus tropicalis with 2 samples.

Results

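Chromosomes 9 and 10 are the shortest of the 10 chromosomes of the frog Xenopus tropicalis, and this account covers all peaks of genome occupancy that the deposited table places on them. They were taken by chromosome name alone, which gave 6686 peaks on chromosome 9 and 4145 on chromosome 10. Together these are 10831 of the 93635 peaks on chromosomes and of 124349 in the table as a whole. The genomic DNA came from tail tissue of wild-type tadpoles whose tails were cut at Nieuwkoop-Faber stage 41, and both libraries are labelled 0 hours post amputation. In the sorted library the dissociated cells had passed through a fluorescence-activated cell sorter, and in the unsorted library they had not, per the FACS label of each library, with 1 library of each kind. The protocol text of both libraries mentions sorting, so which library was sorted rests on that label, and on a title that repeats it. The labels name neither the assay nor any cell population that was gated, and do not say whether animals were pooled.

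A peak here is a stretch of 400 bp over which more reads lay than around it, and 1 merged set of peaks was counted in both libraries. The sorted library held 3111092 reads in peaks and the unsorted library 3176954. On chromosomes 9 and 10 the lowest peak had 8 reads summed over both libraries, and none had a count of 0 in either. There were no replicates, so the libraries cannot be compared beyond their own counting error, intervals cover that error only, and no p-value is given. In a bulk profile, a changed mixture of cells and a change within cells cannot be told apart.

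In the related frog Xenopus laevis, the counterparts of chromosomes 9 and 10 are joined into a single chromosome. Small chromosomes of vertebrates often carry more genes per length than large ones, best known from the microchromosomes of birds. The ends of chromosomes are often rich in genes, in repeats and in recombination. Peaks of genome occupancy can mark promoters, enhancers or repeated sequence, and the kind of each peak was not determined here, since no annotation of the genome build of the table was at hand.

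Peaks were packed more densely on both small chromosomes than on any of the others. Chromosome 10 had 104 peaks per Mb over the 39.95 Mb from its first to its last peak, and chromosome 9 had 83.1 per Mb over 80.4 Mb. Chromosomes 1 to 8 lay between 68.5 (chromosome 7) and 76.8 (chromosome 8) per Mb, with a median of 71.3. Chromosome 10 was thus 1.46 times and chromosome 9 1.17 times as dense as that median. The peaks covered 4.15% of the span of chromosome 10 and 3.32% of that of chromosome 9, against 2.74% to 3.07% on chromosomes 1 to 8. Across the 10 chromosomes, density fell with span by Pearson's r of -0.83 but by Spearman's rho of only -0.52. Among chromosomes 1 to 8 alone they were -0.27 and -0.048, so chromosomes 9 and 10 carry the relation. These are descriptions over 10 points that share the same 2 libraries, and no test between chromosomes was made. In another assembly, genes reached base 52432507 on chromosome 10 and 91190975 on chromosome 9. The last peaks ended at 39954098 and 80448445, and genes lay beyond the last peak on every other chromosome too. Relative to the span used here, that excess was largest on chromosome 10. Densities and distances to an end thus hold for the spans used here, and how far they depend on the build was not tested.

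**Figure D1:**
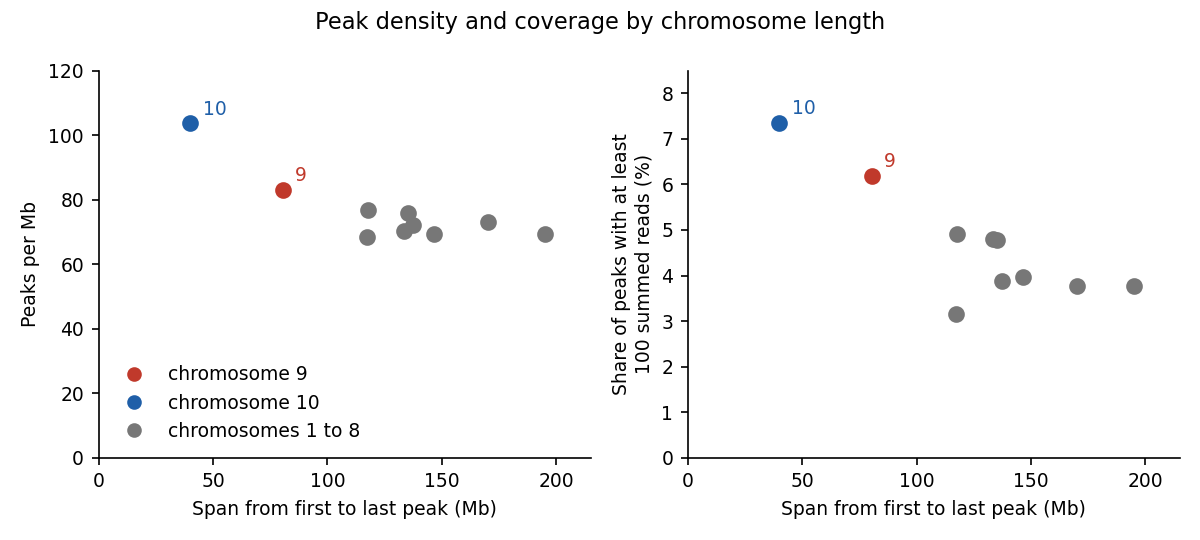
Peaks per Mb (left) and the share of peaks with at least 100 reads summed over both libraries (right, in %) against the span from the first to the last peak in Mb, with 1 point per chromosome. Chromosome 9 (83.1 per Mb, 6.19%) and chromosome 10 (104 per Mb, 7.36%) lie above the grey points of chromosomes 1 to 8, which reach 76.8 per Mb and 4.92%.

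Coverage was higher as well. The median peak of chromosome 10 had 18 reads in the sorted and 17 in the unsorted library. The median peak of chromosome 9 had 15 and 14, at the upper edge of chromosomes 1 to 8, where the medians were 14 to 15 sorted and 13 to 14 unsorted reads. Well covered peaks, taken as those with at least 100 summed reads, made up 7.36% of the peaks of chromosome 10 (305 peaks) and 6.19% of those of chromosome 9 (414 peaks), against 3.15% to 4.92% on chromosomes 1 to 8. They took 36.8% of the summed reads of chromosome 10 and 29.6% of those of chromosome 9, against 18.4% to 27.7%. Chromosome 10 held 15 peaks with at least 1000 reads and chromosome 9 held 3, while none of chromosomes 1 to 8 had more than 6. Several of the 15 were neighbours in a single cluster in the bin from 20 to 21 Mb, with 1046 to 1254 reads each, so they are not spread evenly. At the weak end, 9.77% of the peaks of chromosome 10 and 16.0% of those of chromosome 9 had fewer than 20 reads, against 15.3% to 20.02% on the others.

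The most heavily covered peak of the pair lay near the far end of chromosome 10 at 39744936 to 39745335, with 1832 sorted and 1618 unsorted reads. It was followed on that chromosome by peaks that began at 2928258 (799 sorted and 1212 unsorted reads), 16978413 (850 and 1131), 5024175 (730 and 1113) and 18525648 (769 and 725). On chromosome 9 the first was at 77077838 to 77078237, with 1117 sorted and 1697 unsorted reads. The next began at 80036123 (592 and 921), 78443858 (441 and 700), 34349190 (509 and 480) and 80308104 (374 and 413). Of these 5, 4 lay within the last 3.37 Mb of chromosome 9.

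Neighbouring peaks stood closer together. The median gap was 6007 bp on chromosome 10 and 7057 bp on chromosome 9, against 7470 to 8927 bp on chromosomes 1 to 8. A neighbour within 1 kb was found for 35.7% and 32.9% of the peaks of chromosomes 10 and 9, and for 27.8% to 31.9% on the others. Overlap between neighbours occurred in 64 pairs on chromosome 10 and 101 on chromosome 9, where some reads could count for both members.

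From end to end, both chromosomes were fullest at their ends. In whole bins of 1 Mb, the median count was 102 peaks on chromosome 10 and 72.5 on chromosome 9, against 65 over all 1268 bins of the 10 chromosomes. A bin was called dense from 130 peaks upwards, which is 2 times that overall median. On chromosome 10, 6 of 39 bins (15.4%) were dense, namely those from 0 to 2 Mb and from 35 to 39 Mb. On chromosome 9, 8 of 80 bins (10%) were dense, against 6.18% of the 1149 bins of chromosomes 1 to 8. They covered 0 to 2, 3 to 4, 8 to 9, 45 to 46 and 77 to 80 Mb. The fullest whole bins were the first of chromosome 10 with 186 peaks and the first of chromosome 9 with 176. They were followed by 172 peaks from 38 to 39 Mb and 165 from 1 to 2 Mb on chromosome 10. On chromosome 9 there were 174 from 45 to 46 Mb, and 164 each from 77 to 78 and 79 to 80 Mb. The partial last bins were left out. That of chromosome 9 held 92 peaks up to 80448445 (205 per Mb), and that of chromosome 10 held 177 up to 39954098.

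The middle of each chromosome was thinner, but in different ways. On chromosome 9, stretches of 10 Mb held 128 peaks per Mb at the start and 78.3 in the next stretch, then between 58.4 and 77.1 up to 70 Mb, and 110 per Mb from 70 to 80 Mb. On chromosome 10, stretches of 5 Mb held 137 per Mb at the start, a low of 68.0 from 10 to 15 Mb, and 114 and 107 from 25 to 35 Mb before the last stretch of 156 per Mb. Beyond its midpoint chromosome 10 was denser, with 113 peaks per Mb against 94.6 before it. On chromosome 9 there were 80.5 per Mb beyond the midpoint and 85.8 before it. Above the overall median of 65 peaks lay 33 of 39 bins of chromosome 10 (84.6%) and 47 of 80 of chromosome 9 (58.8%), against 47.1% of the bins of chromosomes 1 to 8.

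**Figure D2:**
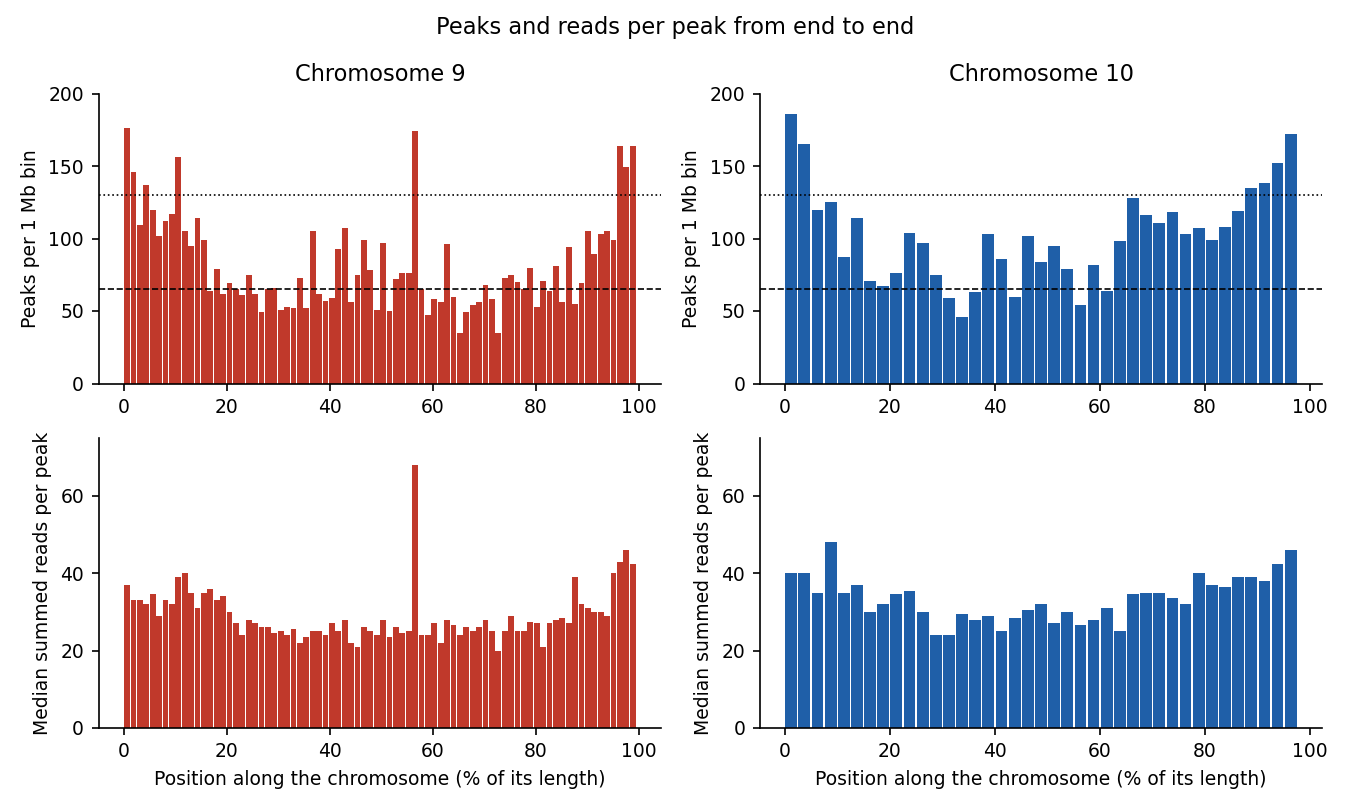
Peaks per whole 1 Mb bin (top) and median reads per peak summed over both libraries (bottom) along chromosome 9 (left) and chromosome 10 (right), with position as a percentage of chromosome length. The dashed line marks the median of 65 peaks over all 10 chromosomes and the dotted line the 130 peaks from which a bin was called dense; the ends stand out on both, as does the bin with 174 peaks and a median of 68 reads inside chromosome 9.

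No bin of either chromosome was empty or sparse, with sparse meaning at most 32.5 peaks. On chromosomes 1 to 8, 6 of 1149 bins (0.522%) were sparse and none was empty. Chromosomes 1, 6, 7 and 8 had no sparse bin either. The emptiest bins of chromosome 9 were those from 52 to 53 Mb and 58 to 59 Mb with 35 peaks each, followed by 47 to 48 Mb with 47. On chromosome 10 they were 13 to 14 Mb with 46, 22 to 23 Mb with 54 and 12 to 13 Mb with 59. Long gaps were few in number. Chromosome 9 had 10 gaps over 100 kb and chromosome 10 had 2, against 18 to 37 on each of chromosomes 1 to 8. These counts are not scaled to length, and chromosomes 1 to 8 span more, from 117 to 195 Mb. Gaps over 50 kb took 8.04% of the span of chromosome 10 and 14.8% of that of chromosome 9, against 17.4% to 20.4%. The longest on chromosome 9 ran from 20505302 to 20665071 (160 kb), followed by gaps of 145 and 124 kb that both lay in the bin from 58 to 59 Mb, a gap of 133 kb from 45802152 to 45934724, and one of 120 kb that began at 39731830. The longest on chromosome 10 was 132 kb, from 13134508 to 13266696, then 120 kb from 22161189, and 3 gaps of 93.8 to 98.2 kb that began at 6803008, 12077534 and 7791060. Whether unassembled sequence lies in these gaps was not tested.

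Short chromosomes have more of their length near an end. The outer 5 Mb at both ends made up 25.03% of the span of chromosome 10 and 12.4% of that of chromosome 9, against 5.13% to 8.53% on chromosomes 1 to 8. They held 35.2% and 21.2% of the peaks of chromosomes 10 and 9. Within those outer 5 Mb, the density was 146 per Mb on chromosome 10 and 142 on chromosome 9, inside the range of 125 to 159 on the others. Away from them it was 89.7 and 74.8 per Mb, above the 63.1 to 69.8 of the others. That interior still differs in how far it lies from an end, so densities were also set side by side at equal distances.

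At equal distances from the nearer end, most of the difference between chromosomes was no longer seen. Within 2 Mb of an end there were 177 peaks per Mb on chromosome 10 and 167 on chromosome 9, against 130 to 199 on chromosomes 1 to 8. Between 2 and 5 Mb there were 126 and 125, against 101 to 147. Between 5 and 10 Mb there were 97.1 and 103, against 85.7 to 124. Between 10 and 20 Mb there were 86.0 and 74.4, against 68.8 to 90.4. Chromosome 10 has no base farther than that from an end, and it lay inside the range of the other chromosomes at every distance. Chromosome 9 lay inside it up to 20 Mb and above it from 20 to 40 Mb, with 67.5 against 58.6 to 65.2. The median reads per peak lay inside the range of chromosomes 1 to 8 in these bands as well, except for chromosome 10 between 2 and 5 Mb, with 40 against 30 to 39.

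**Figure D3:**
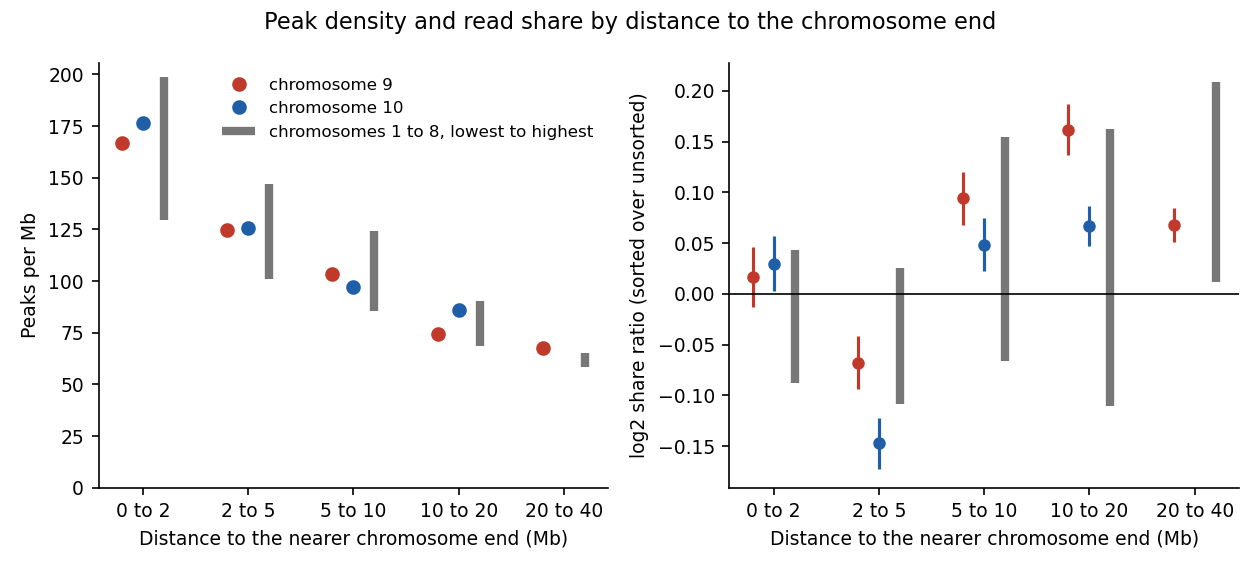
Peaks per Mb (left) and log2 share ratio of sorted over unsorted reads with its 95% counting interval (right) by distance to the nearer chromosome end in Mb, for chromosome 9, chromosome 10 and, as grey bars, the lowest to the highest of chromosomes 1 to 8. The densities of chromosomes 9 and 10 lie inside the grey bars except for chromosome 9 at 20 to 40 Mb, and the share ratio of chromosome 10 lies below the bar at 2 to 5 Mb.

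The most conspicuous single feature of chromosome 9 was the bin from 45 to 46 Mb. It held 174 peaks, against 76 in the bin before it and 65 in the bin after it. Its peaks had a median of 68 summed reads, the highest of all 1268 bins, where its neighbours had 25 and 24. Of its peaks, 64 had at least 100 reads. Inside it, 128 peaks lay between 45150001 and 45700000, bounds chosen after the values were seen. Of those, 60 had at least 100 reads, which is 14.5% of all such peaks of chromosome 9 in 0.684% of its span. The strongest peak there had 742 reads, so the coverage came from many peaks rather than from 1. Beyond it, the last 300 kb of the bin held 13 peaks, none with 100 reads, and contained the 133 kb gap named above.

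As a share of each library, chromosome 9 took 4.82% of the sorted and 4.62% of the unsorted reads. The log2 share ratio of sorted over unsorted was 0.062 (95% interval 0.052 to 0.072), which ranked 5 of 10 chromosomes from the highest. Chromosome 10 took 3.601% of the sorted and 3.59% of the unsorted reads, and its ratio of 0.0061 had an interval from -0.0058 to 0.018, which includes 0. Chromosomes 1 to 8 spread from -0.0041 (chromosome 8) to 0.14 (chromosome 3), so both totals lay inside that range. All ratios in this report are of shares of reads in peaks. Another scaling shifts every ratio alike: TMM factors by -0.067, DESeq2 size factors by -0.030, and the 5000 peaks with the most reads by 0.16. With TMM factors the ratio of chromosome 9 turned to -0.0049, with an interval that includes 0. Differences between stretches do not depend on that choice.

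Single peaks differed between the libraries about as often as elsewhere. To count as differing, a peak needed 20 or more summed reads, a 2-fold or larger ratio, and a 95% interval clear of 0. On chromosome 9, 244 of 5619 such peaks (4.34%) were higher and 81 (1.44%) lower in the sorted library. On chromosome 10, 156 of 3740 (4.17%) were higher and 50 (1.34%) lower. Over all 105380 peaks examined the background was 3.53% higher and 1.65% lower, or 5.19% in either direction, and single chromosomes from 1 to 8 ranged from 3.14% to 5.01% higher and from 1.28% to 2.07% lower. The split between directions moved with the scaling. It was 183 higher and 104 lower on chromosome 9 with TMM factors, 167 and 105 after a loess correction for coverage, and 427 and 36 with the 5000 peaks with the most reads. On chromosome 10 it was 117 and 69, 113 and 72, and 262 and 31 in the same order. The split over all peaks was not computed under these settings. These counts compare 2 libraries, not conditions, and many of the peaks have few reads.

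The peak furthest above an equal share on chromosome 9 lay at 19304842 to 19305241, with 50 sorted and 10 unsorted reads. Its log2 ratio was 2.30 (1.36 to 3.50), while the 4 other peaks within 50 kb had a median of -0.15. On the other side, the peak at 77031588 had 17 sorted and 48 unsorted reads (-1.44, -2.36 to -0.64). On chromosome 10, the highest by its lower interval bound was a well covered peak at 8680340 to 8680739, with 225 sorted and 123 unsorted reads (0.90, 0.58 to 1.23). The lowest was at 14720062 to 14720461, with 22 and 64 reads (-1.49, -2.28 to -0.79), although 3 of its 4 neighbours within 50 kb lay above 0. The other 4 highest peaks had log2 ratios of 1.21 to 1.65 on chromosome 9 and 1.17 to 1.34 on chromosome 10. They had between 50 and 105 summed reads, so their intervals were wide. The other 4 lowest ran from -0.87 to -0.57 on chromosome 9, and from -0.96 to -0.81 on chromosome 10, all under 2-fold. With a minimum of 50 reads, 26 of 1373 peaks of chromosome 9 (1.89%) and 34 of 1101 of chromosome 10 (3.09%) differed, against a background of 2.42%. Among the peaks of chromosome 9 with at least 100 reads 4 differed 2-fold, all higher, and among those of chromosome 10 there were 0, against a background of 0.829% in either direction.

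The chromosome totals hid differences between the parts before and beyond the midpoint, in opposite directions on the pair. Before its midpoint, chromosome 9 had 71386 sorted and 64916 unsorted reads, a log2 share ratio of 0.17 (0.15 to 0.18). Beyond it the ratio was -0.027 (-0.041 to -0.013), from 78688 sorted and 81885 unsorted reads. On chromosome 10 the ratio was -0.074 (-0.091 to -0.057) before the midpoint, from 54053 sorted and 58113 unsorted reads. It was 0.085 (0.069 to 0.10) beyond it, from 57988 sorted and 55816 unsorted reads. The difference of the part before minus the part beyond the midpoint was 0.19 on chromosome 9 and -0.16 on chromosome 10. On chromosomes 1 to 8 it lay between -0.077 and 0.076. Chromosomes 9 and 10 span 80.4 and 39.95 Mb, against 117 to 195 Mb, so a single stretch weighs more in their parts. In peaks under 100 reads alone, the difference was 0.13 on chromosome 9 and -0.00079 on chromosome 10, against -0.056 to 0.034 on chromosomes 1 to 8. The difference of chromosome 9 was thus present in weak peaks, and that of chromosome 10 was not.

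Neither chromosome changed evenly along its length. On chromosome 9, stretches of 10 Mb had ratios of 0.14 to 0.21 up to 40 Mb, then -0.011 from 40 to 50 Mb, 0.015, 0.10, and -0.073 from 70 to 80 Mb. The value from 40 to 50 Mb includes the bin from 45 to 46 Mb, with -0.17. The other bins of that stretch ran from -0.0017 (43 to 44 Mb) to 0.26 (42 to 43 Mb). On chromosome 10 only the first 5 Mb stood clearly below 0, at -0.19, and the later stretches of 5 Mb lay between -0.0095 and 0.12 in no steady order. A single stretch from 2.5 to 6 Mb carried most of the difference on chromosome 10. Without it the ratio before the midpoint was 0.041, and the difference was -0.045 (-0.071 to -0.018), inside the range of chromosomes 1 to 8. Without its own lowest whole bin, from 45 to 46 Mb, chromosome 9 still had 0.17 (0.15 to 0.19). Both stretches were chosen for their low ratios, so leaving them out moves the values by construction.

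The outermost 5 Mb showed the same contrast. The first 5 Mb of chromosome 9 had a ratio of 0.15 (0.12 to 0.19), which was the highest of the 20 chromosome ends, and its last 5 Mb had -0.14 (-0.17 to -0.12). The first 5 Mb of chromosome 10 had the lowest, -0.19 (-0.21 to -0.16), and its last 5 Mb had 0.074 (0.047 to 0.10). The 16 ends of chromosomes 1 to 8 ran from -0.11 to 0.078. Both ends together had -0.031 (-0.050 to -0.011) on chromosome 9 and -0.065 (-0.083 to -0.047) on chromosome 10, which hid these opposite values. With the outer 2 Mb in place of 5 they had 0.017 (-0.013 to 0.046), which includes 0, and 0.030 (0.0032 to 0.056). The first 5 Mb of chromosome 10 holds part of the stretch chosen for its low ratio, so its rank repeats that choice. Before that stretch, the first 2.5 Mb had -0.027 (-0.065 to 0.011). In peaks under 100 reads, the first and last 5 Mb had 0.17 and -0.025 on chromosome 9, and 0.088 and 0.096 on chromosome 10. Of the peaks of chromosome 9 with at least 20 reads, 59.2% lay above 0, against 53.3% to 62.6% on chromosomes 1 to 8. A peak with equal counts in both libraries also lies above 0, at 0.030. In the first bin of chromosome 9, 125 of 176 peaks lay above 0, and the bin had 4636 sorted and 3894 unsorted reads (0.28, 0.22 to 0.34). By contrast, the bins from 77 to 78 and 78 to 79 Mb of chromosome 9 had -0.17 and -0.15, and its last whole bin, from 79 to 80 Mb, had -0.061 (-0.12 to -0.0049). The partial bin beyond it, up to 80448445, had -0.23 (-0.29 to -0.16).

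**Figure D4:**
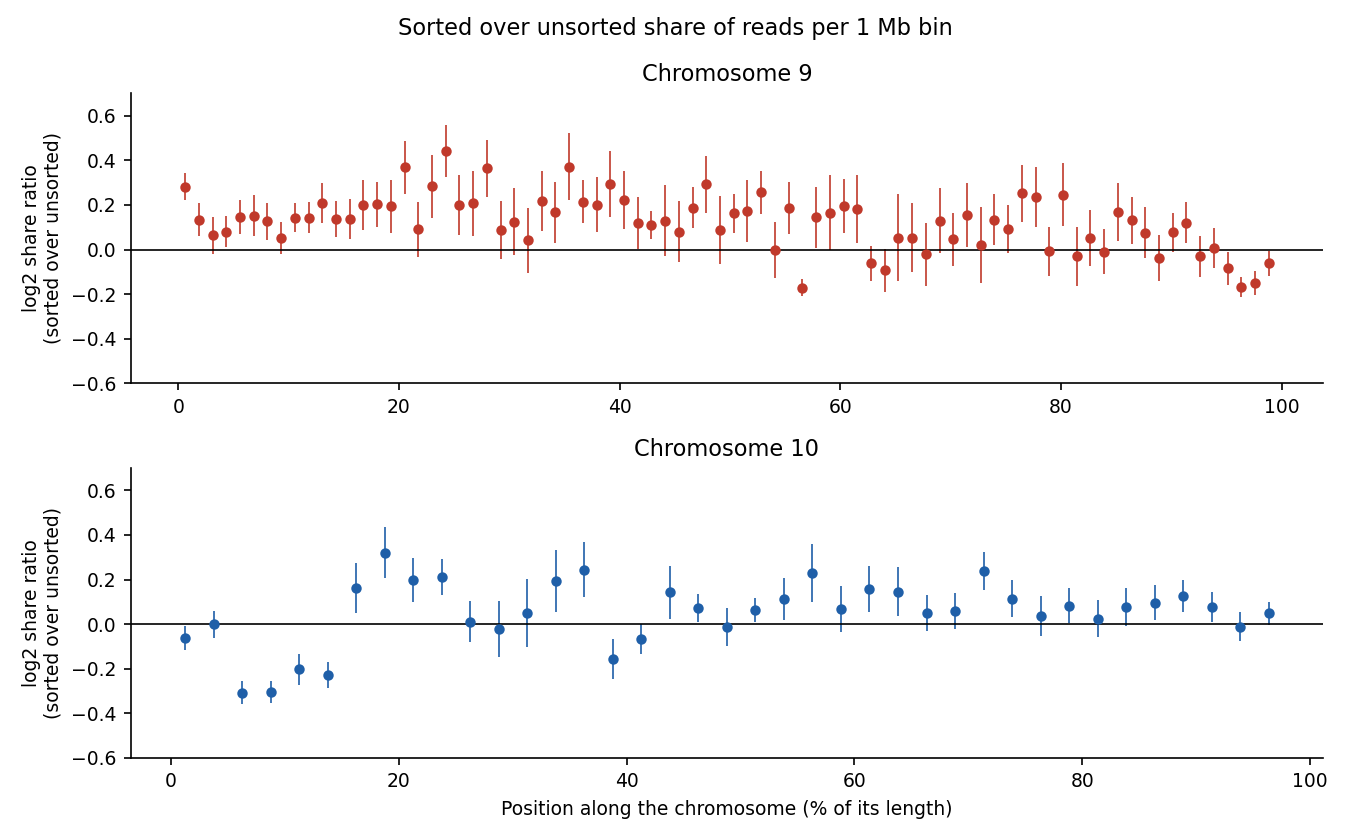
Log2 share ratio of sorted over unsorted reads per whole 1 Mb bin, with 95% counting intervals as bars, along chromosome 9 (top) and chromosome 10 (bottom), with position as a percentage of chromosome length. Most bins of chromosome 9 before its midpoint lie above 0, the bin from 45 to 46 Mb and those near its far end lie below, and the lowest bins of chromosome 10 lie near its first end at -0.31.

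Bin by bin, 46 of 80 bins of chromosome 9 (57.5%) had an interval above 0 and 5 (6.25%) had one below. On chromosome 10, 19 of 39 (48.7%) lay above and 6 (15.4%) below. The background over all bins with at least 20 peaks was 46.1% above and 6.16% below. The highest bins of chromosome 9 lay from 19 to 20 Mb with 0.44 (0.32 to 0.56), from 16 to 17 Mb with 0.37 and from 22 to 23 Mb with 0.36. Their median peaks had 26 to 30 reads, near the 29 of chromosome 9 as a whole. The partial last bin of chromosome 9, from 80000001 to 80448445, had -0.23 (-0.29 to -0.16) over 92 peaks and was not ranked. The lowest whole bin of chromosome 9 was the dense one from 45 to 46 Mb, with 10817 sorted and 12431 unsorted reads (-0.17, -0.21 to -0.13). There 48 of 174 peaks lay above 0, against 59.2% of the peaks of chromosome 9 with at least 20 reads. Between 45150001 and 45700000 the low share was found in peaks under 100 reads (-0.29, -0.38 to -0.20) as well as in stronger ones (-0.14, -0.18 to -0.093). The first 150 kb of the bin, before those bounds, had an even lower ratio of -0.25 (-0.38 to -0.12) over 33 peaks at a similar density, with intervals that overlap. The last 300 kb had -0.043 (-0.37 to 0.28), and the adjoining bins had 0.19 and 0.14.

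On chromosome 10 the lowest bins were those from 2 to 3 Mb (-0.31, with 5173 sorted and 6536 unsorted reads), 3 to 4 Mb (-0.31, with 5801 and 7323) and 5 to 6 Mb (-0.23, with 4451 and 5321). Among all 1267 bins examined, counted from the lowest ratio, they ranked 4, 5 and 10. The highest of chromosome 10 were close by, from 7 to 8 Mb with 0.32 (0.21 to 0.44), and from 9 to 10 Mb with 0.21, besides 28 to 29 Mb with 0.24.

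The low stretch of chromosome 10 differed between strong and weak peaks. From 2500001 to 6000000, bounds chosen after the values were seen, 84 peaks had at least 100 summed reads, which is 27.5% of all such peaks of chromosome 10 in 8.76% of its span. Of these, 70 lay below 0, with a median log2 ratio of -0.47 and quartiles of -0.57 and -0.28. An interval wholly below 0 was found for 52 of them (61.9%), against a background of 17.2% of all peaks with at least 100 reads. The 43 with at least 200 reads were still more uniform, since 41 lay below 0, with a median of -0.50. Outside the stretch, 112 of 221 well covered peaks of chromosome 10 lay below 0, with a median of -0.0085. Of the 55 with at least 200 reads outside it, 40 (72.7%) lay below 0, with a median of -0.13. The 308 weaker peaks inside the stretch had a pooled ratio of 0.10 (0.053 to 0.16), close to the 0.12 (0.10 to 0.13) of weaker peaks elsewhere on chromosome 10. Since the stretch was chosen for its low ratio, these values describe it and support nothing.

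**Figure D5:**
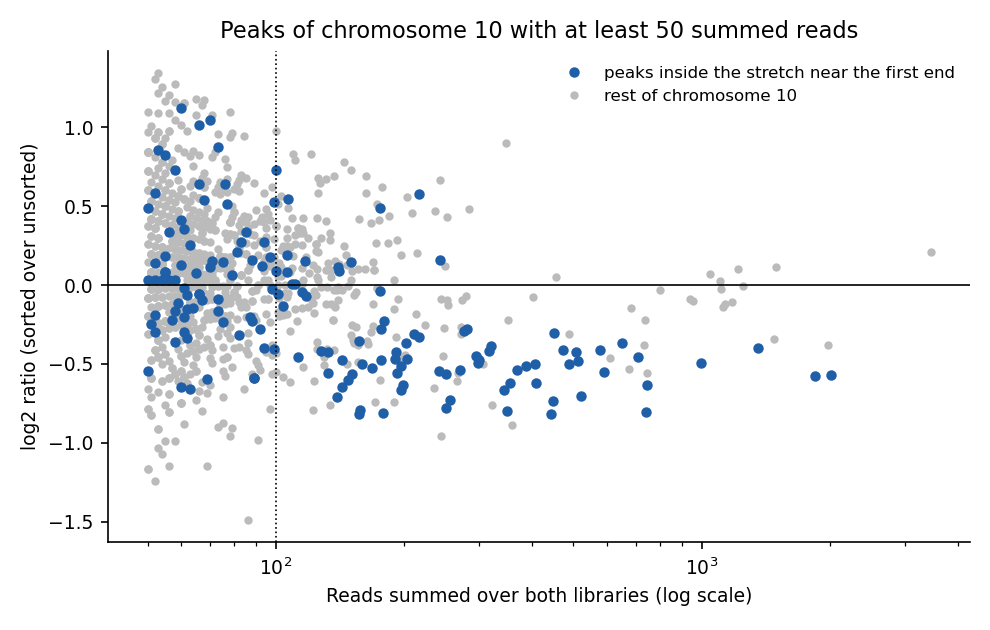
Log2 ratio of sorted over unsorted reads of each chromosome 10 peak with at least 50 reads, against the reads summed over both libraries on a log scale; the dotted line marks 100 reads. Peaks of the stretch from 2.5 to 6 Mb (blue) gather near -0.50 from 200 reads upwards, while those of the rest of the chromosome (grey) have a median of -0.13 there.

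Bins of this kind occurred on other chromosomes too. Among the 129 bins with at least 10 well covered peaks, the median log2 ratio of those peaks was lowest from 5 to 6 Mb of chromosome 8 (-0.52). Chromosome 10 followed from 3 to 4 Mb (-0.51), then chromosome 5 from 4 to 5 Mb (-0.46) and chromosome 10 from 2 to 3 Mb (-0.45). All of these lie near the first end of their chromosome, but some bins further along the ranking do not. At ranks 14 and 16 were 190 to 191 Mb of chromosome 1 (-0.31) and 78 to 79 Mb of chromosome 9 (-0.30), near the last end. At rank 18 was a bin inside chromosome 9, from 50 to 51 Mb (-0.28). Among whole ends of 5 Mb, the first end of chromosome 10 had the lowest median of well covered peaks (-0.42, 103 peaks), against -0.16 to 0.24 at the 16 ends of chromosomes 1 to 8. That end holds part of the stretch chosen for its low ratio. The 5 Mb cut also leaves out low bins just beyond it on other chromosomes. On chromosome 8 the bins from 5 to 8 Mb had -0.52, -0.39 and -0.45. From 5 to 6 Mb, chromosome 4 had -0.44, chromosome 5 -0.36 and chromosome 10 itself -0.33.

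On chromosomes 9 and 10, as on chromosomes 1 to 8, peaks with 400 or more reads had a lower share ratio than weak ones. With 30 to 49 summed reads the log2 share ratio was 0.15 on chromosome 9 and 0.13 on chromosome 10, against 0.13 on chromosomes 1 to 8. With 400 or more it was -0.26 on both chromosomes, against -0.25. In between, peaks with at least 200 and under 400 reads had -0.28 (-0.33 to -0.23) on chromosome 10, below the -0.10 (-0.14 to -0.066) of chromosome 9 and the -0.080 (-0.094 to -0.067) of chromosomes 1 to 8. The values of chromosome 10 in this class and at 400 or more both include the stretch from 2.5 to 6 Mb that was chosen for its low ratio. Its likeness to chromosomes 1 to 8 at 400 or more thus holds with that stretch, and is not given without it. Peaks with at least 200 reads had -0.51 inside that stretch and -0.11 (-0.14 to -0.080) on the rest of chromosome 10.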

How the data were processed

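The authors deposited whole-number read counts over 1 merged peak set, with a column for each library. The submitters' processing notes name featureCounts, MACS2, SAMtools, Trim Galore and both Bowtie and Bowtie2, without versions or order. Not given in the sources used here are the genome build, the handling of duplicate and multiply mapped reads, and the library each peak was called from. Merged counting cannot show peaks gained or lost. A gene table of assembly UCB_Xtro_10.0 was at hand, but it placed genes beyond the last peak of every chromosome, so the builds were treated as different and no gene or sequence was assigned. Positions are those of the table, counted from base 1.

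Ratios are sorted over unsorted shares of reads in peaks, with 95% Clopper-Pearson intervals of the sorted share of reads, and a prior count of 0.5 for single peaks. Intervals of differences between parts of a chromosome combine the widths of both parts as the root of their summed squares. Bins were 1 Mb from base 1, and a peak belonged to the bin of its centre. The 548 peaks without a position stayed in the library totals. The design allowed no test, with 1 library per group. The calling rule and the pooled ratio were tested on simulated data. Named peaks were the 5 with the most reads on each chromosome, and the 5 highest and 5 lowest by interval bound among those with at least 50 reads, of which 4 on each side are given as ranges. Named bins were the 3 fullest, emptiest, highest and lowest whole bins, and named gaps the 5 longest. The chromosomes, bins and rules were chosen with earlier results of these data known. The parts either side of a midpoint, the ends taken singly, and the stretches with stated bounds were added after the values were seen. Computation used Python 3.11.15, NumPy 2.4.6, pandas 2.3.3, SciPy 1.17.1, statsmodels 0.14.6 and, for TMM and size factors, edgeR 4.0.16 and DESeq2 1.42.0.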

Additional observations from a re-analysis of the deposited data

How the results depend on the processing

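No paired analysis was possible because there was a single library of either kind, and none could be left out in turn. Of the 90 values under alternatives, 43 stayed within the range set by counting error or within 1.5 times the count and 47 did not, and 9 changed side of 0. The cause was not tested except where the construction shows it. With at least 50 reads per peak the density was 17.1 per Mb on chromosome 9 and 27.6 on chromosome 10, since fewer peaks count. Median reads per peak were 30.3 on chromosome 9 and 36.4 on chromosome 10 from the sorted library scaled to the summed depth, 27.7 on chromosome 9 from the unsorted one, and 32 and 37 with a minimum of 20 reads. For the log2 share ratio, chromosomes 9 and 10 had -0.0049 and -0.061 with TMM factors, 0.032 and -0.024 with DESeq2 size factors, and 0.22 and 0.16 with the 5000 most covered peaks, all shifts by 1 constant. As shares of chromosome reads alone they had 0.0061 and -0.050. Without their 10 most covered peaks they had 0.078 and 0.021. Means over peaks were 0.042 and 0.038 after a loess correction for coverage (span 0.3), and 0.12 and 0.11 before it, a setting added after the values were seen. So were the values without the stretches named in the report, 0.082 without 45 to 46 Mb of chromosome 9 and 0.068 without 2.5 to 6 Mb of chromosome 10, higher by construction since both were chosen for low ratios. The difference between the parts before and beyond the midpoint was then 0.17 and -0.045. The outer 5 Mb at both ends together turned from below to above 0 when 2 Mb were taken. They had 0.017 (-0.013 to 0.046) on chromosome 9, which includes 0, and 0.030 (0.0032 to 0.056) on chromosome 10. With 10 Mb they had 0.014 (-0.0014 to 0.030), above 0 with an interval that includes it, and -0.028. TMM factors gave them -0.097 and -0.13, DESeq2 size factors -0.061 and -0.095, and the 5000 most covered peaks 0.13 and 0.093, both above 0. Differing peaks on chromosomes 9 and 10 numbered 26 (1.89%) and 34 (3.09%) with at least 50 reads, against 2.42% of all such peaks. With at least 100 they numbered 4 (0.966%) and 0, against 0.829%. At 3-fold there were 78 (1.39%) and 45 (1.20%), and with a 99% interval 109 (1.94%) and 80 (2.14%). A prior count of 5 gave 185 (3.29%) and 103 (2.75%). At 1.5-fold chromosome 10 had 316 (8.45%). For the fold, interval and prior count settings, the share over all peaks was not computed. A minimum of 20 reads made 30.8% of the bins of chromosome 10 dense. Depth limits single peaks: the median peak had 29 reads on chromosome 9 and 34 on chromosome 10.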
